A study of Homo sapiens with 6 samples.

Results

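Of the 10 genes of the FOS, JUN and EGR families (FOS, FOSB, FOSL1, FOSL2, JUN, JUNB, JUND, EGR1, EGR2 and EGR3), 9 were tested. Only JUN differed between IL-17A-treated and control SU-DHL-2 cells at an adjusted p under 0.05 from limma, where 7.59% of all tested probes did. JUN was 1.32-fold higher with IL-17A. This call was kept in 5 of 18 alternative ways of processing and was lost when any 1 of the 6 arrays was left out. The members were chosen by family, as every probe whose RefSeq accession belongs to one of the 10 genes. There were 10 such probes, 1 per gene, among 34127 probes for 19740 named genes. SU-DHL-2 is an established cell line of diffuse large B-cell lymphoma (DLBCL). Its cells were cultured for 72 h with IL-17A at 200 pg/ml (3 samples) or without it (3 samples, the controls), and RNA of each sample was labeled with Cy3 and hybridized to a 1-colour Whole Human Genome array. The line is a single tumor line, all 6 samples shared the same medium, and only 1 dose and 1 time point were measured. The labels do not say that the 3 samples of a group were separate cultures, so p-values measure the spread between these samples, which may be technical.

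The FOS and JUN proteins are the subunits of AP-1, a dimer of basic leucine zipper (bZIP) proteins that binds DNA. JUN proteins pair with each other or with FOS proteins, whereas FOS proteins need a partner such as JUN. EGR1, EGR2 and EGR3 are zinc finger factors that bind GC-rich sites. Most of these genes are immediate early genes, transcribed within minutes of a signal through MAP kinases and then switched off, so that their RNA at 72 h is a late measurement. The IL-17 receptor signals through the adaptor Act1 and TRAF6 to NF-κB and MAP kinases, and in lymphocytes the EGR genes are known for their response to antigen receptor signals.

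The DNA just before the transcription start differs among the members. It is shown for JUN and FOS, the tested members with the largest log2 fold changes, and for JUNB and EGR1. The groups overlapped for FOS, JUNB and EGR1, so the 4 sequences are not a contrast of changed and unchanged genes. The sequences are from RefSeq and run 5′ to 3′ over the 250 bases before the start, with matches to the searched motifs in capitals.
JUN (GRCh38.p14, chr1:58784048-58784297, minus strand): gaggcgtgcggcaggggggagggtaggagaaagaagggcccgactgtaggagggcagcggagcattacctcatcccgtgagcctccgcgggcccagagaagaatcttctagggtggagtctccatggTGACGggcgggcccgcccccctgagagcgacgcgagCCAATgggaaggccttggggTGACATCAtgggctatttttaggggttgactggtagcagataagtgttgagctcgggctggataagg
FOS (GRCh38.p14, chr14:75278578-75278827, plus strand): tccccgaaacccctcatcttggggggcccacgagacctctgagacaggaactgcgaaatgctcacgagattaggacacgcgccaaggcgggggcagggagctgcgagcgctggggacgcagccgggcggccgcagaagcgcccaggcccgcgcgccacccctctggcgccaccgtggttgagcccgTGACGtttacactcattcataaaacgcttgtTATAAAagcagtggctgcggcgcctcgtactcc
JUNB (GRCh38.p14, chr19:12791236-12791485, plus strand): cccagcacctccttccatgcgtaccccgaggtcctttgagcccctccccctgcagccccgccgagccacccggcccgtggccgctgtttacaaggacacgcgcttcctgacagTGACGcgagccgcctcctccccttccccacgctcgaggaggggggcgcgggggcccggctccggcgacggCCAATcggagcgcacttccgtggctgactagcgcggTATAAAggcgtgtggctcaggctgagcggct
EGR1 (GRCh38.p14, chr5:138465229-138465478, plus strand): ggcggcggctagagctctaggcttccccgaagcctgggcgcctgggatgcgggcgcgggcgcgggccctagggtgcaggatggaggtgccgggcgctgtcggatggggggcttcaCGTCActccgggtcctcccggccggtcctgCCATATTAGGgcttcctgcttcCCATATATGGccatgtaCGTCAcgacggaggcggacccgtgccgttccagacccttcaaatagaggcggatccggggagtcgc
The motifs, searched on both strands, were the AP-1 site TGAGTCA, the variant TGACATCA known from the JUN promoter, the cyclic AMP response element (CRE) TGACGTCA and its core TGACG, the CArG box bound by SRF, the EGR sites GCGTGGGCG and GCGGGGGCG, the CCAAT box (CCAAT) and the TATA box (TATAAA). The CRE core overlaps every full CRE. Windows were given for 8 of the 10 members, all but FOSL1 and EGR3. JUN held the variant AP-1 site 67 bases before its start, a motif found in 2.37% of 35116 windows of this length. Since this variant is known from the JUN promoter itself, its match there was fixed in advance, and nothing is read from that share. No member window held the site TGAGTCA (4.20% of windows) or either EGR site (0.720% and 4.72%). The CRE core was found in every one of the 8 genes, for EGR2 only at the last of its 3 listed starts, against 21.2% of all windows. The shares count windows, of which EGR2 had 3, and are not matched for GC content. The members' windows held 54.8% to 78.0% GC, against a median of 58.0% over all windows. The full CRE was found only in JUND (1.65%). EGR1 had 2 CArG boxes, starting 105 and 83 bases before the start, and EGR2 had 1 at the last of its 3 listed starts, against 1.16% of all windows. FOS, FOSB and JUNB had a TATA box (10.7%), and JUN, JUNB and JUND a CCAAT box (32.0%). A match describes the letters in this window and is not a measured binding site.

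**Figure D1:**
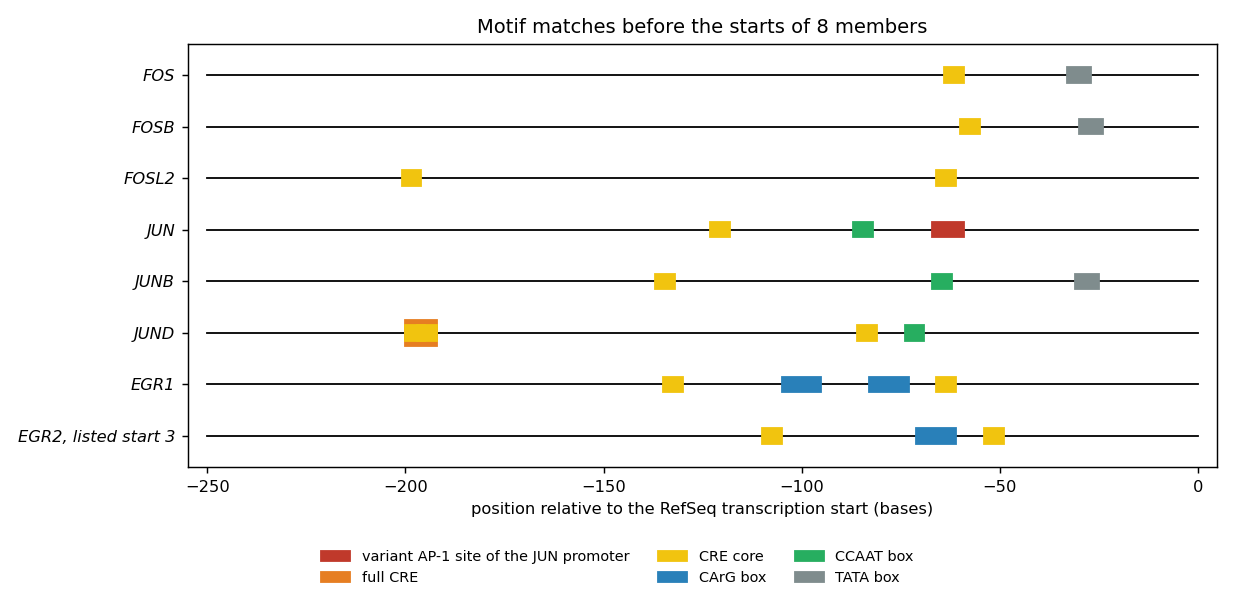
Motif matches in the 250 bases before the transcription start of 8 members, with position relative to the start in bases on the x axis and a colored block for each match. JUN is the member with the variant AP-1 site (67 bases before the start), a motif known from its own promoter. The CArG boxes lie in EGR1 and EGR2, the latter drawn for the last of its 3 starts.

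Values are quantile normalized log2 signals, and detection of a probe on an array required both flags that the scanner software sets, for a positive and significant signal and for one clearly above the local background. The number of probes detected was 23580 to 24079 per array, and the lowest detected log2 signal was 1.86 to 2.11. By the scan times in the file headers, IL-17A replicate 1 was scanned together with all 3 controls (scan 1), and the other IL-17A arrays in a scan of their own, so the treatment is partly confounded with the scan. All 12 B cell markers, among them CD79A and PAX5, were detected, and none had an adjusted p under 0.05 from limma, against 7.59% of all tested probes. At an unadjusted p under 0.05, 4 of these markers were higher and 1 lower (31.3% of all tested probes in either direction). Their summed signal was 80994 to 82907 with IL-17A and 75443 to 78240 in the controls, without overlap. Of 10 T and NK cell markers, 7 were detected on at least 1 array and CD5, NCAM1 and KLRD1 on none. These 7 were tested, and their summed signal was 1095 to 1183 with IL-17A and 1272 to 1460 in the controls. The 7 genes differed in sign. This sum mainly follows CD4, which was lower (log2 fold change -0.31, adjusted p = 0.0669 from limma), so it does not describe T and NK cell markers as a set. CD4 lay at 9.73 to 9.86 against 9.98 to 10.24 on the log2 scale, where CD3G, the next highest, reached 6.79. CD3E was lower (log2 fold change -0.46, adjusted p = 0.0401 from limma), though its difference was -0.048 under normexp and its adjusted p was 0.0951 with a variance trend and 0.163 with scan as a block. CD2 had a log2 fold change of 0.51 (adjusted p = 0.0539) without overlap, where 39.0% of all tested probes did not overlap. Monocyte markers were detected for 4 of 5 genes with a probe, and 3 were tested (summed signal of these 240 to 261 with IL-17A, 278 to 345 in the controls). Mesenchymal and endothelial markers were detected for 5 of 10 (266 to 276 against 290 to 334). The part of these shifts in the results below was not tested. Signals of different probes cannot be ranked against each other, so each member is compared only with itself across the arrays.

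In the JUN family, JUN, the founding subunit and a target of JNK, had log2 signals of 5.98, 6.20 and 6.04 in IL-17A replicates 1, 2 and 3 and of 5.62, 5.65 and 5.74 in control replicates 1, 2 and 3. All 3 IL-17A arrays lay above all 3 controls. Mean JUN signal was 6.07 ± 0.11 (SD, n = 3) in the treated samples, against 5.67 ± 0.06 (SD, n = 3) in the untreated ones, and the log2 fold change was 0.40 (standard error 0.07, adjusted p = 0.0368 from limma over all 23945 tested probes). The 95% interval was 1.17-fold to 1.49-fold, under the study's threshold of 1.5-fold. A permutation of the 6 arrays gave an exact p of 0.1 for JUN, the smallest that 3 against 3 allow. JUN RNA in the whole sample was measured, so more cells with JUN RNA and more JUN RNA per cell cannot be told apart. Without any 1 of the 6 arrays the adjusted p was above 0.05, from 0.0529 without control replicate 3 to 0.145 without control replicate 2, while the log2 fold change stayed between 0.34 and 0.45. In scan 1, which held IL-17A replicate 1 and the 3 controls, the log2 fold change was 0.31 (unadjusted p = 0.0172, adjusted p = 0.195 from limma).

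JUNB, an AP-1 subunit that is abundant in several lymphomas, had log2 signals of 4.80, 4.63 and 4.76 with IL-17A and of 4.74, 4.72 and 4.89 in the controls. The groups overlapped, and the 95% interval of the difference was 0.85-fold to 1.09-fold. JUND, the subunit usually present in resting cells, had log2 signals of 5.39, 4.46 and 5.59 with IL-17A and of 5.20, 5.003 and 5.11 in the controls. IL-17A replicate 2 was the lowest of the 6 arrays, 1.03 below the mean of IL-17A replicates 1 and 3 on the log2 scale, and both of those lay above every control. The spread of JUND within groups was larger than that of 95.8% of tested probes, and its 95% interval was wide, 0.62-fold to 1.72-fold. Without IL-17A replicate 2, the log2 fold change of JUND was 0.39 in place of 0.04 (unadjusted p = 0.00985, adjusted p = 0.1 from limma). Without IL-17A replicate 1 it was -0.08, without IL-17A replicate 3 -0.18 and without control replicate 2 -0.01.

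**Figure D2:**
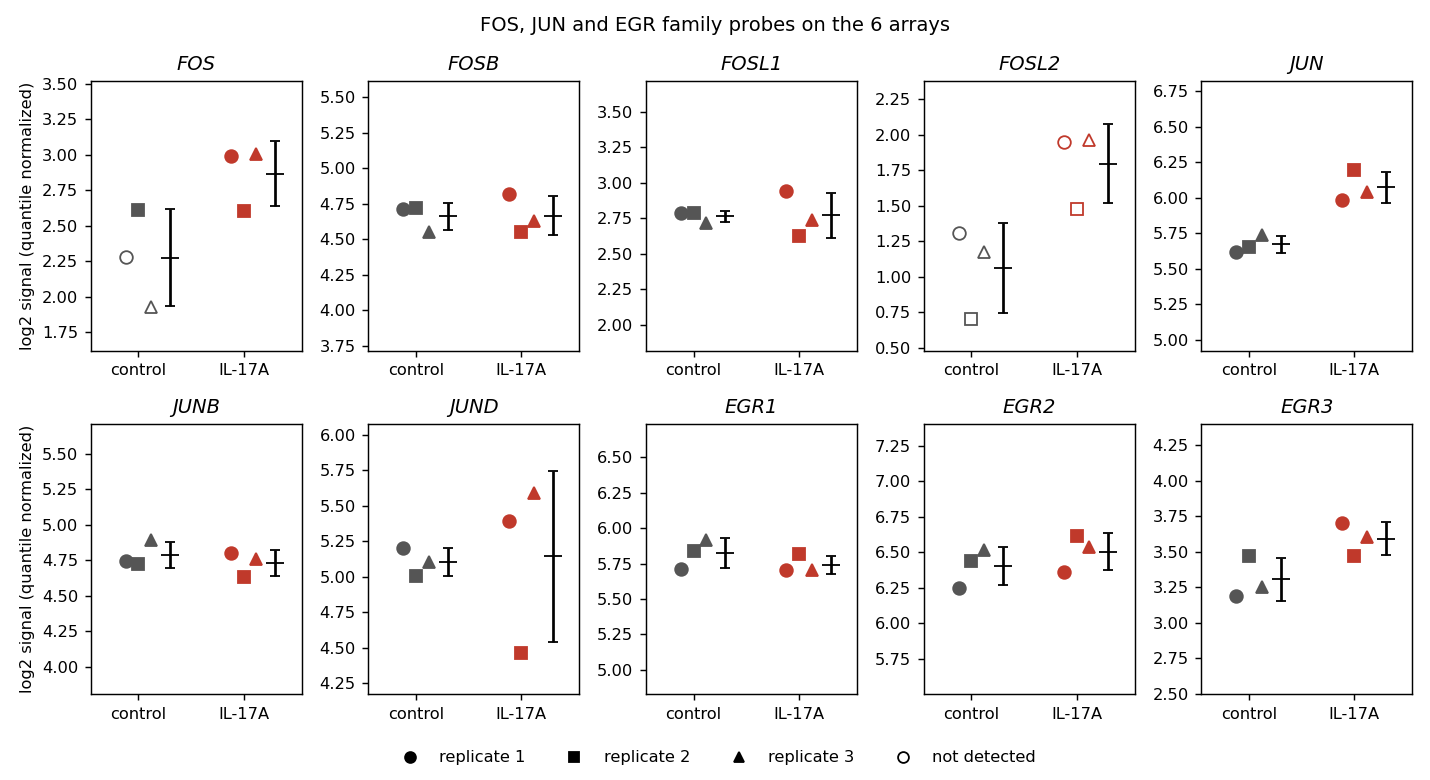
Log2 signal (quantile normalized, y axis) of the 10 member probes in control and IL-17A samples, with a symbol for each replicate, open where the probe was not detected, and a bar for the mean ± SD of 3 arrays; every panel spans the same log2 range. The JUN groups are separate (5.98 to 6.20 against 5.62 to 5.74), IL-17A replicate 2 of JUND lies at 4.46, and FOSL2 is detected on no array.

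In the FOS family, FOS itself was near the detection limit. Its log2 signals were 2.99, 2.60 and 3.01 with IL-17A, detected on all 3 arrays, and 2.28, 2.61 and 1.93 in the controls, where only replicate 2 was detected. The groups overlapped at IL-17A replicate 2 and control replicate 2, which differed by 0.01. The means differed by 0.59 on the log2 scale (standard error 0.20, unadjusted p = 0.0280, adjusted p = 0.117 from limma). FOS entered the test through its 3 detected IL-17A arrays and 1 detected control, and 2 of the 3 controls were not flagged as clearly above background, so the size of its difference is not settled. With signals raised to the lowest detected signal of each array the log2 fold change was 0.54, and with normexp background correction it was 0.019 (unadjusted p = 0.554 from limma). The study's methods counted genes past 1.5-fold at a p under 0.05, and its statistics also state an FDR under 0.05. With 1 array left out, FOS was past 1.5-fold and an unadjusted p under 0.05 only when the array omitted was replicate 2 of either group (0.72 for the IL-17A one and 0.76 for the control one). The log2 fold change of FOS was 0.53 and 0.52 when replicate 1 or 3 of the IL-17A group was omitted, and 0.60 (unadjusted p = 0.0664 from limma) and 0.42 when replicate 1 or 3 of the controls was omitted.

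FOSB, a FOS paralog that can also activate transcription with JUN, had log2 signals of 4.82, 4.55 and 4.63 with IL-17A and of 4.71, 4.72 and 4.55 in the controls, with overlapping groups. Its 95% interval was 0.86-fold to 1.17-fold. FOSL1, which encodes FRA-1, had log2 signals of 2.94, 2.63 and 2.74 with IL-17A and of 2.79, 2.78 and 2.72 in the controls. The groups overlapped again, and the 95% interval was 0.87-fold to 1.16-fold. FOSL2, which encodes FRA-2, was detected on 0 of the 6 arrays and was not tested. Its log2 signals of 1.47 to 1.96 with IL-17A and 0.70 to 1.30 in the controls were not flagged as clearly above background on any array, so no fold change is given.

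In the EGR family, EGR1 had log2 signals of 5.70, 5.82 and 5.70 with IL-17A and of 5.71, 5.84 and 5.92 in the controls, and the groups overlapped. The 95% interval of the difference was 0.84-fold to 1.06-fold. EGR2 had log2 signals of 6.36, 6.61 and 6.53 with IL-17A and of 6.25, 6.44 and 6.51 in the controls, with overlapping groups and a 95% interval of 0.91-fold to 1.27-fold. EGR3 had log2 signals of 3.70, 3.47 and 3.61 with IL-17A and of 3.19, 3.47 and 3.26 in the controls. The IL-17A arrays were higher except that IL-17A replicate 2 and control replicate 2 were equal to 2 decimals. The log2 fold change of EGR3 was 0.29 (standard error 0.10), a 95% interval of 1.03-fold to 1.44-fold, with an unadjusted p of 0.0273 and an adjusted p of 0.116 from limma. With normexp background correction it was 0.033 (unadjusted p = 0.321 from limma).

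**Figure D3:**
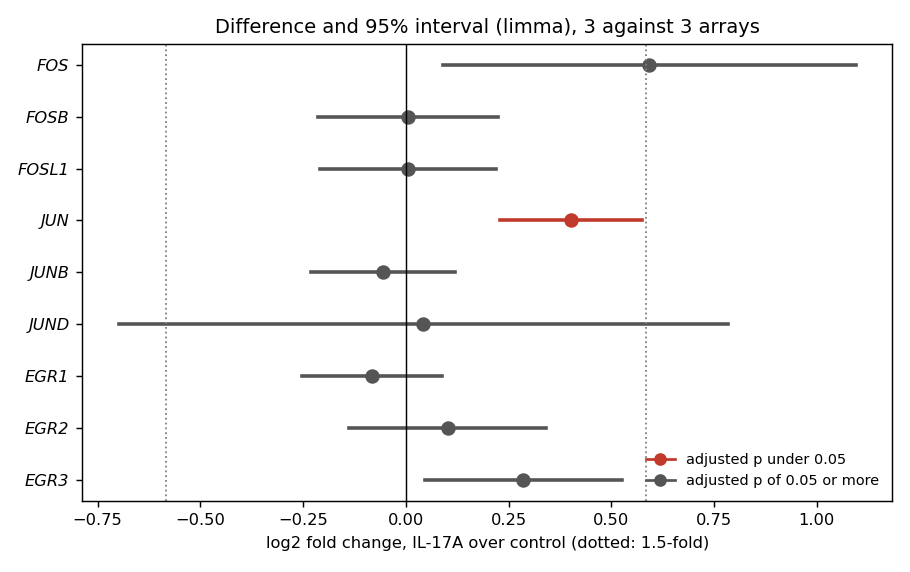
Log2 fold change of IL-17A over control (x axis) with its 95% interval from limma for the 9 tested members, with dotted lines at 1.5-fold. The interval of JUN ends at 0.57, just under the line, that of JUND runs from -0.70 to 0.78, and 6 of the 9 intervals include 0. FOS was detected on only 1 of 3 controls, so its interval carries that limit.

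Over the 9 tested members, 1 had an adjusted p under 0.05, where 7.59% of all tested probes did (4.43% higher and 3.17% lower). With an adjusted p under 0.05, which the study also states, 0 members were past 1.5-fold. The threshold of 1.5-fold and an unadjusted p under 0.05 was passed by 1 member, FOS at 1.51-fold, against 2.18% of all tested probes (1.01% higher). Since FOS passed the detection filter mainly through the group where it was high, nothing is read from this count. The same limit holds for the counts of unadjusted p and of higher means and for the median below, which include FOS. An unadjusted p under 0.05 was found for 3 members (JUN, EGR3 and FOS), all higher with IL-17A, against 31.3% of all tested probes in either direction and 17.1% that were higher. The groups did not overlap for 1 member, where 39.0% of all tested probes did not overlap, and 21.0% of all had IL-17A higher. The mean was higher with IL-17A for 7 of the 9, against 51.6% of all tested probes. The median log2 fold change was 0.04 over the members and 0.0070 over all tested probes. With only the probes detected on all 6 arrays, which leaves FOS out, the members' median was 0.02.

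Within the groups, the members deviated from their group mean in a pattern that was noticed in the data. IL-17A replicate 2 was the lowest IL-17A array for 7 of the 10 members (FOS, FOSB, FOSL1, FOSL2, JUNB, JUND and EGR3) and the highest for the other 3 (JUN, EGR1 and EGR2), so that it was never the middle array. FOSL2, among the 7, was detected on no array. Over all tested probes, the same array was the lowest of its group for 35.1% and at either extreme for 75.4%. Among the controls, each array was the lowest for 3 or 4 members and the highest for 3 or 4. The median within-group SD was 0.12 on the log2 scale for the members and 0.08 for all tested probes.

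**Figure D4:**
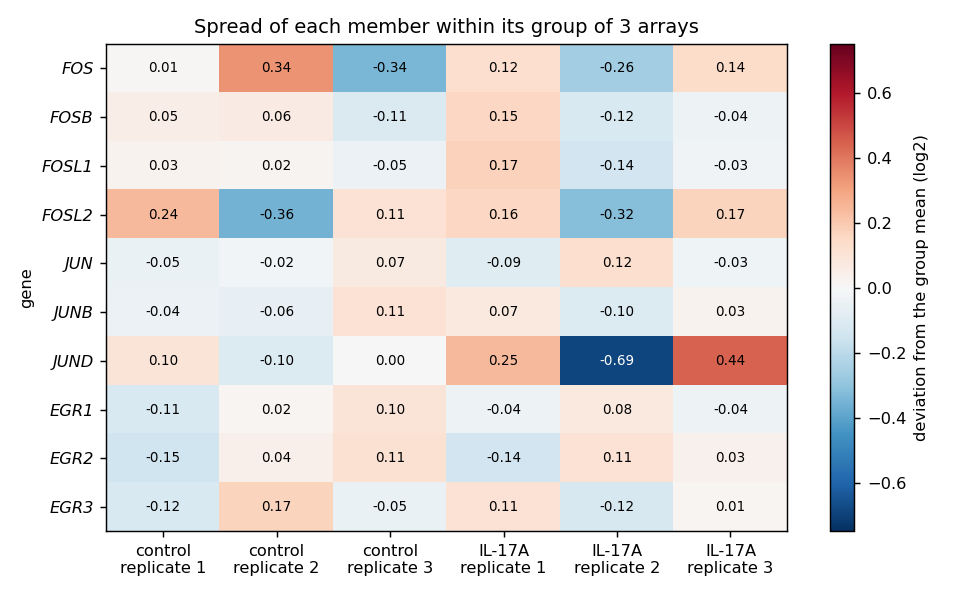
Deviation of each member (rows) from the mean of its group on each array (columns), in log2 units, with the value written in each cell. The largest deviation is that of JUND in IL-17A replicate 2, and FOS deviates by 0.34 in both directions among the controls.

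The partners, regulators and known targets of these factors were examined as lists. The lists were chosen with earlier results of these data known, so their counts are descriptions and not independent support. Of 15 bZIP partners and relatives, all tested, 4 had an adjusted p under 0.05, 3 higher and 1 lower, against 7.59% of all tested probes (4.43% higher and 3.17% lower), with a median log2 fold change of 0.02. The higher genes were MAFF (0.29, adjusted p = 0.0360 from limma), a small MAF protein without an activation domain, and ATF7 (0.31, adjusted p = 0.0360) and ATF2 (0.28, adjusted p = 0.0475), which dimerize with JUN. ATF3, a stress-induced family member, was lower at its brightest probe (-0.37, adjusted p = 0.0363), while its other tested probes ranged from -0.35 to 0.59. The groups did not overlap for any of these 4 genes, as for 39.0% of all tested probes. Since the 4 were named for their p-values, nothing is read from that separation. BATF3, which pairs with JUN proteins, had a log2 fold change of 0.55 (adjusted p = 0.0721) and BATF one of 0.20 (adjusted p = 0.135).

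The co-repressors that bind the EGR proteins were NAB1 and NAB2. NAB2, itself a target of EGR factors, fell from 9.15 ± 0.02 (SD, n = 3) to 8.82 ± 0.11 (SD, n = 3) on the log2 scale (log2 fold change -0.33, adjusted p = 0.0420 from limma). Its groups did not overlap, as for 39.0% of all tested probes, and nothing is read from that for a gene named for its p-value. NAB1 had a log2 fold change of -0.12 (adjusted p = 0.132). Upstream of the members, none of 23 tested genes of the MAP kinase and SRF pathway had an adjusted p under 0.05 from limma, against 7.59% of all tested probes. At an unadjusted p under 0.05, 4 of the 23 genes were found, all higher, where 17.1% of all tested probes were higher at that p. The log2 fold changes of the 23 ran from -0.12 to 0.21. MAPK8, which encodes one of the JNK kinases, had no named probe, so the list does not cover it. Of 17 tested immediate early genes outside the 3 families, such as IER2, NR4A1 and ZFP36, none had an adjusted p under 0.05 from limma, against 7.59% of all tested probes. At an unadjusted p under 0.05, 2 were higher and 2 lower, against 31.3% of all tested probes in either direction. Their median log2 fold change was -0.05. Among these 17 genes, each at its brightest probe, CCN1, a secreted matrix protein gene, was the gene past 1.5-fold at an unadjusted p under 0.05. That threshold was passed by 2.18% of all tested probes. The log2 fold change of CCN1 was -0.68 (unadjusted p = 0.0345, adjusted p = 0.131 from limma), without overlap. RHOB had a log2 fold change of -0.16 at its brightest probe and of -1.21 at its other tested probe.

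Of 20 genes known as targets of AP-1 or EGR factors, a list also chosen with earlier results known, 14 were tested. An adjusted p under 0.05 was found for 3, all higher, against 4.43% of all tested probes that were higher. These 3 were CD69, an early activation marker of lymphocytes (log2 fold change 0.45, adjusted p = 0.0286 from limma), IL2RA, the alpha chain of the IL-2 receptor (0.40, adjusted p = 0.0327), and TNFRSF8, which encodes CD30 and is regulated by JUNB (0.37, adjusted p = 0.0313). The groups did not overlap for any of them, as for 39.0% of all tested probes, and nothing is read from that for genes named for their p-values. The other probe of IL2RA had a log2 fold change of 0.38. The other 11 tested targets did not pass, among them the collagenase gene MMP1 (-0.40, adjusted p = 0.0925) and CCND1 (0.04, adjusted p = 0.840), and the median of the list was -0.01. Of 16 genes known to respond to IL-17, 9 were tested and none had an adjusted p under 0.05 from limma, against 7.59% of all tested probes. At an unadjusted p under 0.05, 1 was higher and 2 were lower, against 31.3% of all tested probes in either direction. The lowest p of these 9 genes belonged to NFKBIZ (0.23, adjusted p = 0.0516). For the 8 genes named as passed in these lists (MAFF, ATF7, ATF2, ATF3, NAB2, CD69, IL2RA and TNFRSF8), the adjusted p was above 0.05 on scan 1 alone, with scan as a block, with the replicate block and with no normalization between arrays, with the directions kept. The methods' t-test also lost ATF7, ATF2, ATF3 and NAB2. Normexp lost MAFF, ATF7 and ATF2, with log2 fold changes of 0.096, 0.091 and 0.19 (adjusted p = 0.0665, 0.0857 and 0.0957 from limma). Leaving all probes in lost ATF2 and NAB2, and the authors' table lost MAFF. With 1 array left out, the adjusted p of these 8 genes and of CD3E was also above 0.05, except for ATF3, CD69, IL2RA and TNFRSF8 without control replicate 3.

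**Figure D5:**
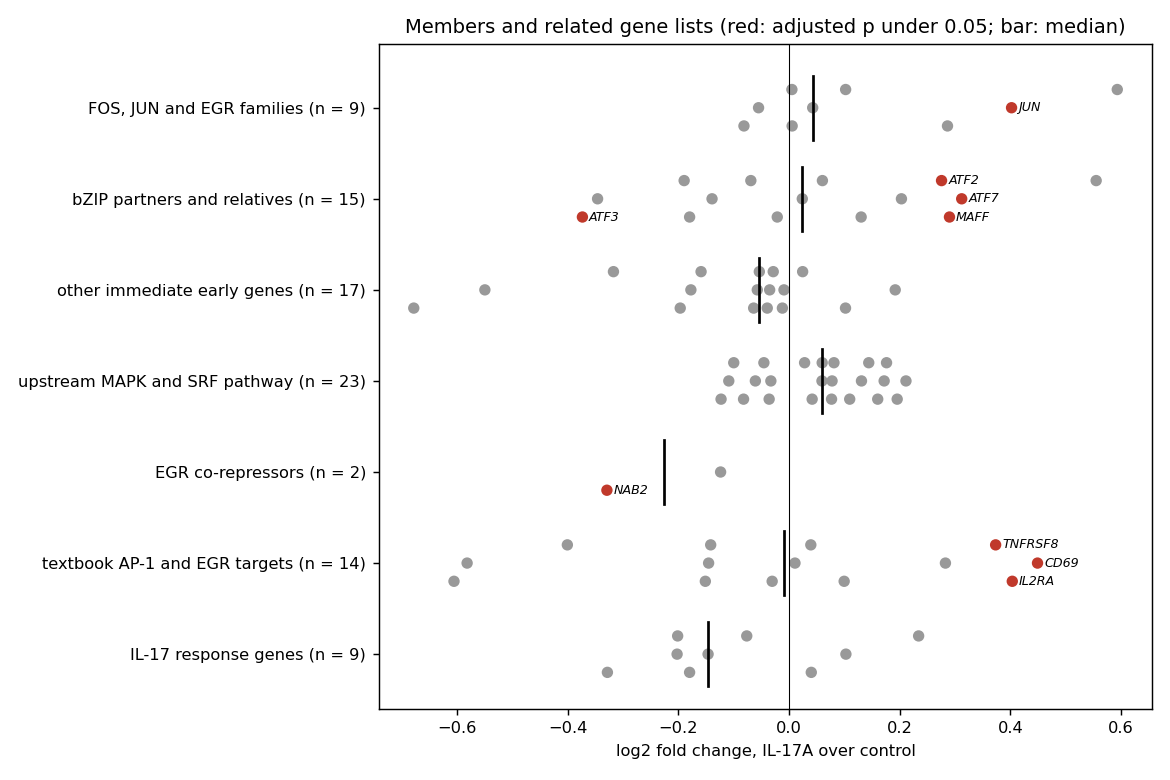
Log2 fold change of IL-17A over control (x axis) for the tested genes of the 3 families and of 6 related lists (rows), each gene as a point at its brightest probe, red at an adjusted p under 0.05, with a bar at the list's median. JUN is the red point of the 3 families, and the red points of the other lists lie on both sides of 0.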

How the data were processed

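RNA of 3 IL-17A-treated and 3 control samples of SU-DHL-2 cells was measured on 6 arrays, and samples were grouped by their titles. The files that the authors deposited give, per the file headers, a background-subtracted intensity for each of 43118 spots from Agilent Feature Extraction 11.0.1.1, with arrays not yet scaled to each other, besides median spot and background brightness and detection flags. A further deposited table holds the authors' log2 values, quantile normalized in GeneSpring GX, which served as an alternative.

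Control spots and non-uniform spots (4 to 25 per array) were left out, intensities below 1 were set to 1, replicate spots were averaged as log2 values, and quantile normalization was applied across arrays. A probe counted as detected where the positive-and-significant and the well-above-background flag were both set (spots averaged), and the 23945 probes (70.2%) with 3 or more detected arrays entered limma 3.58.1 in R 4.3.3, two-sided and without covariates, with Benjamini-Hochberg adjustment over all of them. The number of arrays limits the precision. Probes were named through RefSeq accessions with gene names of GRCh38.p14, and a gene with several probes was represented by the one with the highest mean signal. The array annotation uses an earlier assembly, so the position of a probe within its gene is not given, and promoter sequences carry their own build.

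The members and lists were chosen with earlier results of these data known. The rule for named genes was all 10 members, the genes of the other lists with an adjusted p under 0.05 (at most 6 per list) and, of the marker lists, undetected B cell markers and changed markers of other cells. BATF, BATF3, NAB1, MMP1, CCND1, NFKBIZ, CCN1, RHOB, CD2, CD4 and the example genes of a list were named outside this rule, after their values were seen. MAPK8 was named because it had no probe. The procedure was tested on simulated data. The other experiments of the study were not analysed here.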

Additional observations from a re-analysis of the deposited data

How the results depend on the processing

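Scaling, background correction, the authors' table, the detection filter, a floor, the variance trend, the methods' t-test, blocks for replicate or scan, scan 1 alone and the omission of each array were tried. Normexp was run on the median spot brightness, since the files hold no mean brightness, and this form and the alternatives for genes of the other lists were chosen after seeing the data. Each member has 1 probe, so the mean over probes gave the same values.

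Of 161 alternative values for the 9 tested members, 132 had the sign and the adjusted call of the reported value, 13 no longer passed it and 16 reversed. All 13 belong to JUN, whose log2 fold change was positive with an unadjusted p under 0.05 in each of its 18 alternatives, from 0.13 under normexp (adjusted p = 0.113 from limma) to 0.45, and 5 of them kept the adjusted call. The count of members with an adjusted p under 0.05 (from limma except in the t-test) was therefore 0 with no normalization between arrays, under normexp, with no filter, by the methods' t-test, with the replicate block, with scan as a block, on scan 1 alone, and 0 to 0 with each array left out. Over all probes, 2 to 983 probes had an adjusted p under 0.05 from limma with 1 array left out, against 1818 with 6 arrays. The count of members past 1.5-fold was 0 after 75th percentile scaling, with no normalization, under normexp, with the authors' table, with probes detected on all arrays (FOS was not among them), with the floor, by the methods' t-test, with the replicate block and with either scan setting, 2 with no filter, where FOSL2 was added though it was detected on no array, and 0 to 1 with each array left out.

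The labels do not say whether same-numbered samples were paired. The deviations of same-numbered arrays correlated at -0.087, -0.0022 and -0.047 across probes. These values cannot settle pairing, since replicates 2 and 3 of the IL-17A group were in another scan than those of the controls. With the replicate block, 0 members and 4 of 23907 probes had an adjusted p under 0.05.

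The reversed values belong to members whose interval includes 0. FOSB was -0.040 and FOSL1 -0.11 after 75th percentile scaling, FOSB was -0.014 and FOSL1 -0.081 with no normalization, and FOSL1 was -0.0070 under normexp. JUNB was 0.019 and EGR2 -0.041 with either scan setting. With each array left out, FOSB ran from -0.072 to 0.063, FOSL1 from -0.081 to 0.077 and JUND from -0.18 to 0.39. The members' median log2 fold change was 0.18 with either scan setting, which both rest on IL-17A replicate 1 alone, and ran from -0.062 (without IL-17A replicate 1) to 0.077 with each array left out.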
